A study of Mus musculus with 8 samples.

Results

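The genes described here encode the enzymes that turn glucose into pyruvate and lactate, carry pyruvate into mitochondria and oxidise it in the citric acid cycle, together with malic enzymes and parts of the malate-aspartate shuttle. The 47 members were taken from a list of gene symbols for these pathways, and all 47 were found among the 31053 genes in the count files. Loss of Bbs8 was examined in retinal pigment epithelium (RPE), the pigmented cell layer that nourishes the photoreceptors, isolated at postnatal day 29 (P29). Of each genotype 4 mice gave 1 library each, Bbs8+/+ littermate controls and Bbs8-/- mutants on a C57/Bl6 background, untreated and of undetermined sex. Bbs8, a subunit of the BBSome that carries cargo in cilia, was deleted in every cell of the mutants, photoreceptors included. The libraries were made with a 3′ protocol that reads the end of each polyadenylated transcript, and errors stand for n = 4 animals of each genotype unless a library is said to be left out.

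Glycolysis splits glucose into pyruvate in the cytosol, and lactate dehydrogenase converts pyruvate to lactate or lactate back to pyruvate. Pyruvate that enters mitochondria is turned into acetyl-CoA by the pyruvate dehydrogenase complex, which pyruvate dehydrogenase kinases switch off, and acetyl-CoA is oxidised in the citric acid cycle. In the eye, photoreceptors convert much of their glucose to lactate even with oxygen present, while the RPE passes glucose on from the choroid and relies largely on mitochondria for its own energy.

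Each control library held between 2495094 and 3093428 reads assigned to genes, and each mutant library between 2389835 and 2736289. Reads that fell on no annotated gene made up 17.0% to 18.4% in the controls and 19.8% to 20.6% in the mutants, and 14115 to 14496 and 13657 to 14084 genes were detected, without overlap in either measure. Levels are given in counts-per-million (CPM), after scaling of the libraries by the trimmed mean of M values (TMM), and 1 transcript gives about 1 tag whatever its length, so they are not divided by length. A gene with 3 counts, taken as the smallest signal, stood at 1.02 to 1.23 CPM, and this floor includes no error beyond that of counting. A gene had to reach 1 CPM in 4 or more of the 8 libraries to be tested, and the test between genotypes was the quasi-likelihood test of edgeR, with p-values adjusted by the Benjamini-Hochberg method over all 12889 genes tested and a threshold of 0.05. A gene is called up-regulated or down-regulated only if it passed that threshold, and log2 fold changes are Bbs8-/- against Bbs8+/+, with a standard error (SE).

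Bbs8+/+ replicate 1 stood apart from the other controls. Over 6253 genes whose mean was 20 CPM or more, the log2 ratio of this library to the mean of the other Bbs8+/+ libraries had an SD of 0.384, against 0.254 to 0.278 for the other 3, and 0.300 to 0.347 for the Bbs8-/- libraries. With 1 CPM added to both sides of the ratio, 124 genes in this library were at or below 50% of the others' mean. The other Bbs8+/+ libraries had 6 to 10 such genes and the Bbs8-/- libraries 27 to 63. Among the members these were Gapdh, Pfkm and Idh1, and Tpi1 lay just above that limit. Results that rest on this library are therefore given with and without it.

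The deleted gene, listed as Ttc8 (ENSMUSG00000021013, chr12:98920574-98983238, build GRCm38/mm10), had 105, 142, 144 and 116 counts in Bbs8+/+ replicates 1 to 4 and 15, 5, 14 and 15 counts in Bbs8-/- replicates 1 to 4. Each Bbs8-/- library lay far below each Bbs8+/+ library, as the labels say, and a few counts remained in all 4 of them. The log2 fold change of Ttc8 was -3.34 ± 0.29 (SE), with an adjusted p of 2.47e-11 by edgeR.

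RPE isolated from Bbs8-deficient mice had lower transcript levels of most glycolytic enzymes that changed, above all Pgam1, Pkm and Hk2. The citric acid cycle as a whole stayed close to control. In the same libraries the summed levels of rod, lens and erythrocyte genes fell to 41.5%, 13.8% and 39.6% of control. Those of cone, Muller glia, reactive glia, ocular surface and RPE genes were higher. The higher RPE sum was due to Ttr, and the other RPE genes together were lower. Among the 14 RPE genes 5 were up-regulated and 4 down-regulated. The Muller glia sum was mostly Glul, and 2 of 8 Muller glia genes were up-regulated. The part of any of these cells was not tested. Of the 47 members 46 passed the filter on low counts, and only Pdk4 did not, with 0 to 6 counts per library. Down-regulated were 10 of the 46 (21.7%), against 6.80% of all 12889 genes tested, and up-regulated were 4 (8.70%), against 5.46%. The members were chosen with earlier results of these data known, so these shares are descriptions and not an independent test. The median log2 fold change of the members was -0.11, and that of all genes tested was 0.022. All Bbs8-/- libraries lay below all Bbs8+/+ libraries for 11 members, which was so for 8.62% of all genes tested, and above them for 5, which was so for 7.42%. Without Bbs8+/+ replicate 1 the counts were 13 down-regulated and 3 up-regulated members, against 6.68% and 5.08% of the 12689 genes then tested. With scaling by library size alone, up-regulated genes made up 60.5% of all calls in place of 44.5%, and among the members 7 were up-regulated and 7 down-regulated. Under that scaling Hk1, Mdh2 and Got2 no longer passed the threshold and Mdh1, Sucla2 and Slc25a12 passed it as up-regulated genes. The count of up-regulated members fell to 2 when Bbs8+/+ replicate 2, Bbs8-/- replicate 2 or Bbs8-/- replicate 4 was left out.

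**Figure D1:**
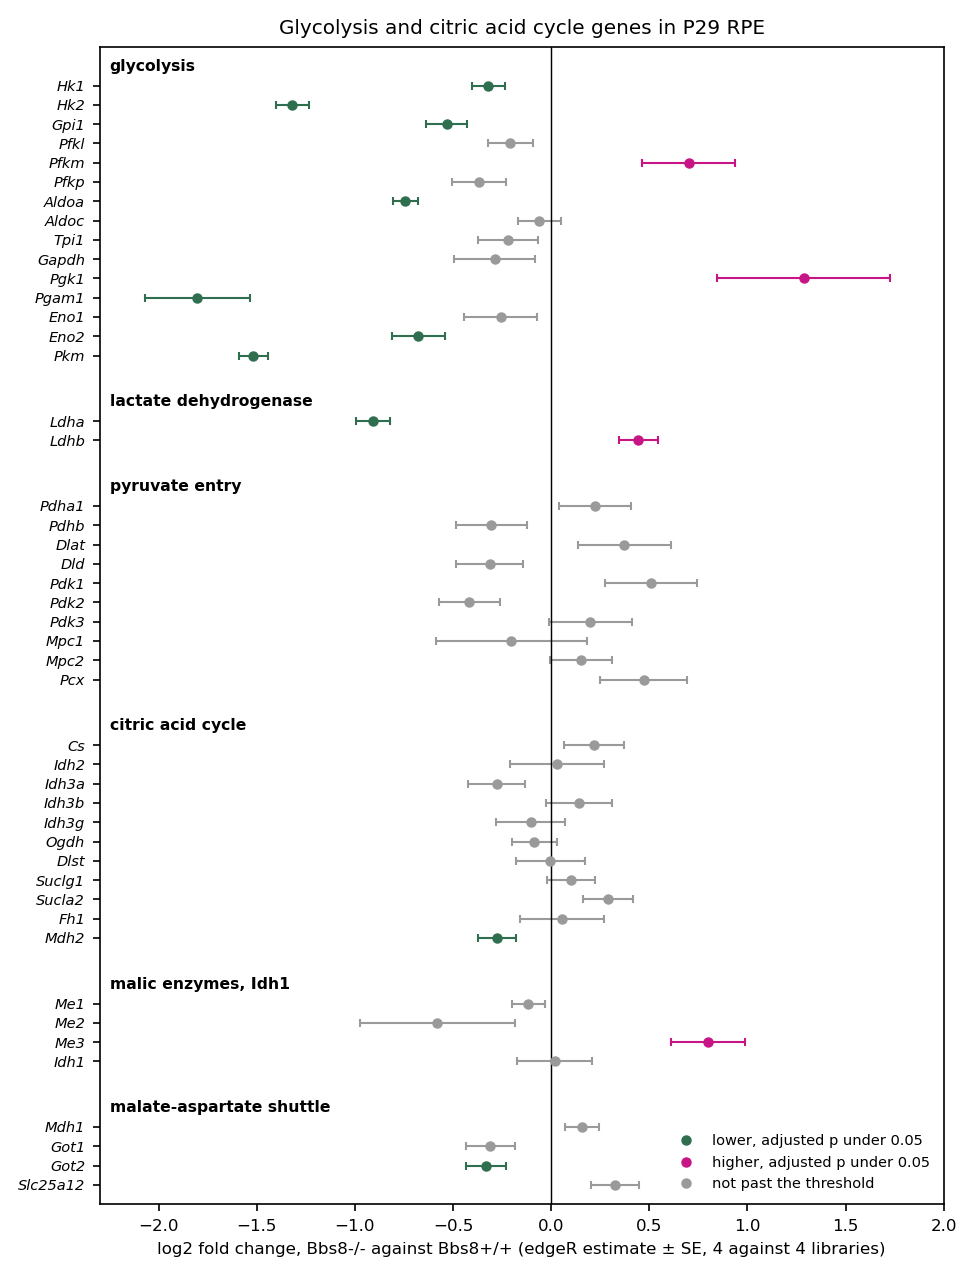
Log2 fold change of the 46 members tested, Bbs8-/- against Bbs8+/+, with the SE of the edgeR estimate, ordered by role. Green points passed the threshold as lower, magenta points as higher, and grey points did not pass. The points furthest to the left are Pgam1 (-1.80), Pkm (-1.52) and Hk2 (-1.32). Hk1, Mdh2 and Got2 did not pass with scaling by library size alone.

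Of the 15 members that act between glucose and pyruvate, 7 were down-regulated (46.7%, against 6.80% of all genes tested). Up-regulated were 2 (13.3%, against 5.46%), and 6 did not pass the threshold. The median log2 fold change was -0.32. Without Bbs8+/+ replicate 1, 10 of the 15 were down-regulated and 0 up-regulated, against 6.68% and 5.08% of genes then tested, with a median of -0.41. The up-regulated count was also 0 without Bbs8+/+ replicate 2 or Bbs8-/- replicate 2, 3 or 4. In these bulk libraries fewer cells of a type and less RNA per cell cannot be told apart.

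Hexokinases trap glucose in the cell by phosphorylating it. Hk2 (ENSMUSG00000000628, chr6:82725025-82774454), the inducible hexokinase, stood at 593, 522, 551 and 568 CPM in Bbs8+/+ replicates 1 to 4 and at 219, 244, 229 and 204 CPM in Bbs8-/- replicates 1 to 4. The genotypes did not overlap, and every mutant library was far below the lowest control. The mean in Bbs8-/- was 40.1% of the control mean, with a log2 fold change of -1.32 ± 0.086 (SE) and an adjusted p of 6.59e-15 by edgeR. Hk1 (ENSMUSG00000037012, chr10:62268855-62379908), the hexokinase of most tissues, stood at 535, 535, 479 and 482 CPM in the controls and 374, 419, 449 and 386 CPM in the mutants. Its groups did not overlap either, though the highest mutant and the lowest controls were close, and the log2 fold change was -0.32 ± 0.083 (adjusted p 0.00706, edgeR). With scaling by library size alone it was -0.23 (adjusted p 0.0621).

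Within each library Hk2 made up 52.6, 49.4, 53.5 and 54.1% of the counts of both hexokinases in the controls and 36.9, 36.8, 33.8 and 34.6% in the mutants, a share that does not depend on how libraries are scaled. Hk2 held about equal shares with Hk1 in every control and a clear minority in every mutant, without overlap. The means were 52.4% ± 2.11 in Bbs8+/+ and 35.5% ± 1.56 in Bbs8-/- (SD, n = 4), and a two-sided exact permutation test gave p = 0.0286, the smallest value that 4 against 4 libraries allow. Over the 14 isozyme shares compared, the Benjamini-Hochberg adjusted p of this exact test was 0.0667, and no share passed 0.05 after adjustment.

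Gpi1 (ENSMUSG00000036427, chr7:34201330-34230336), the isomerase that makes fructose-6-phosphate, was measured at 284, 211, 246 and 292 CPM in the controls and 178, 197, 178 and 161 CPM in the mutants. All mutant libraries were below all controls, and the log2 fold change was -0.53 ± 0.11 (adjusted p 3.62e-04, edgeR). In the end of its transcript 5.41% of windows of 50 bases also occur in other annotated transcripts.

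Phosphofructokinase, the main control point of glycolysis, is built from liver (Pfkl), muscle (Pfkm) and platelet (Pfkp) subunits. Pfkm (ENSMUSG00000033065, chr15:98092589-98132451) stood at 12.2, 25.7, 24.9 and 27.1 CPM in the controls and 28.7, 40.8, 34.4 and 41.6 CPM in the mutants. The lowest mutant library was just above the highest control, and Bbs8+/+ replicate 1 was far below the other controls. The log2 fold change of Pfkm was 0.70 ± 0.24 with an adjusted p of 0.0450 by edgeR, close to the threshold. The call was lost when Bbs8+/+ replicate 1 (0.180), 2 (0.0562) or 3 (0.0606) or Bbs8-/- replicate 2 (0.120), 3 (0.0675) or 4 (0.131) was left out, with the adjusted p in parentheses, and without Bbs8+/+ replicate 1 the log2 fold change was 0.49. Pfkl had 215, 173, 152 and 201 CPM in the controls and 139.6, 185, 159 and 159 CPM in the mutants, with overlap and a log2 fold change of -0.21 ± 0.11 (adjusted p 0.280, edgeR). Pfkp had 96.5, 93.6, 105 and 131 CPM in the controls and 94.0, 83.8, 68.8 and 83.5 CPM in the mutants. Only the highest mutant of Pfkp reached the lowest control, and its log2 fold change of -0.37 ± 0.14 did not pass (adjusted p 0.0777, edgeR), while without Bbs8+/+ replicate 1 it was -0.41 ± 0.14 with an adjusted p of 0.0388. As a share of the 3 subunits' counts, Pfkm took 3.77, 8.79, 8.85 and 7.54% in the controls and 10.95, 13.2, 13.1 and 14.7% in the mutants, again without overlap (exact permutation p = 0.0286, adjusted 0.0667). The shares of Pfkl and Pfkp overlapped between genotypes (exact permutation p = 0.686 and 0.171, adjusted 0.738 and 0.218).

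Aldolase splits the hexose into triose phosphates. Aldoa (ENSMUSG00000030695, chr7:126795234-126800751), the muscle form, had 1902, 1806, 1874 and 1945 CPM in the controls and 1024, 1154, 1189 and 1125 CPM in the mutants. The groups were far apart and tight, with a mean in Bbs8-/- at 59.7% of control, a log2 fold change of -0.74 ± 0.064 and an adjusted p of 1.26e-11 by edgeR. Aldoc, the brain form, had 192, 181, 197 and 195 CPM in the controls and 211, 179.5, 202 and 142 CPM in the mutants. Its groups overlapped, Bbs8-/- replicate 4 was the lowest library, and the log2 fold change was -0.061 ± 0.11 (adjusted p 0.812, edgeR), with the opposite sign, 0.027, when scaled by library size alone. Aldoc therefore made up 9.15, 9.10, 9.51 and 9.13% of aldolase counts in the controls and 17.1, 13.5, 14.5 and 11.2% in the mutants. The controls were nearly identical and every mutant was higher by a different amount (exact permutation p = 0.0286, adjusted 0.0667).

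Tpi1, which interconverts the triose phosphates, and Gapdh, which makes the first high-energy phosphate of the pathway, turned on Bbs8+/+ replicate 1. Tpi1 was at 68.7, 138, 135 and 140.5 CPM in the controls and 103, 97.1, 115 and 98.5 CPM in the mutants. Gapdh was at 67.0, 255, 292 and 232 CPM in the controls and 217, 150.5, 156 and 167 CPM in the mutants. In both genes that control was the lowest of all 8 libraries, while every mutant of Tpi1 and of Gapdh lay below the lowest of the other controls. Tpi1 did not pass with all libraries (log2 fold change -0.22 ± 0.15, adjusted p 0.427, edgeR) and was down-regulated without that library, at -0.41 ± 0.12 with an adjusted p of 0.0125. Gapdh likewise went from -0.29 ± 0.21 (adjusted p 0.440, edgeR) to -0.59 ± 0.10 with an adjusted p of 1.24e-05. In the last 400 bases of the Gapdh transcript 87.7% of 50-base windows also occur in other annotated genes, mostly Gapdh pseudogenes, and since only uniquely mapped reads were counted its level is uncertain.

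Pgk1 (ENSMUSG00000062070, chrX:106187100-106203699), the kinase that makes the first ATP of glycolysis, had only 4, 16, 33 and 8 counts in the controls and 41, 45, 31 and 34 counts in the mutants, or 1.35, 5.97, 13.5 and 2.97 CPM and 16.8, 16.1, 12.4 and 11.9 CPM. Bbs8+/+ replicate 3 lay within the range of the mutants, and the other controls lay below it. The log2 fold change was 1.29 ± 0.44 (adjusted p 0.0487, edgeR), and DESeq2 gave an adjusted p of 0.0551. Leaving out Bbs8+/+ replicate 1 (0.137), 2 (0.0959) or 4 (0.174) or Bbs8-/- replicate 1 (0.119), 2 (0.116), 3 (0.0705) or 4 (0.0675) ended the call, with the adjusted p in parentheses, and the log2 fold change was 0.95 without Bbs8+/+ replicate 1 and, with the call kept, without Bbs8+/+ replicate 3 it was 2.05. The direction of Pgk1 is thus a statement about a few counts per library.

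Pgam1 (ENSMUSG00000011752, chr19:41911923-41918660), the mutase that shifts the phosphate of phosphoglycerate, showed the largest fall among the 46 members tested. It stood at 57.9, 36.9, 31.5 and 33.1 CPM in the controls and 10.3, 15.8, 6.40 and 12.9 CPM in the mutants. The mutant values rest on only 25, 44, 16 and 37 counts, which limits how well the size of the fall is known. Bbs8+/+ replicate 1 was here the highest library, and every mutant was below every control. The mean in Bbs8-/- was 28.5% of control, with a log2 fold change of -1.80 ± 0.27 and an adjusted p of 3.43e-06 by edgeR. Without Bbs8+/+ replicate 1 it was -1.56 ± 0.28 with an adjusted p of 2.07e-05. Pkm was then at -1.49 ± 0.070, so which of these genes fell more is not settled.

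Enolase makes phosphoenolpyruvate. Eno2 (ENSMUSG00000004267, chr6:124760053-124769673), the neuronal enolase, had 111, 112, 107 and 111 CPM in the controls and 61.2, 76.3, 80.0 and 58.0 CPM in the mutants. The controls were almost equal, the mutants were spread below them, and the log2 fold change was -0.68 ± 0.14 (adjusted p 3.68e-04, edgeR). Eno1, the enolase of most tissues, had 39.9, 43.3, 62.1 and 52.8 CPM and 46.4, 47.3, 36.4 and 35.3 CPM, with overlapping groups and a log2 fold change of -0.26 ± 0.19 (adjusted p 0.444, edgeR). Eno1 is uncertain, because 83.8% of 50-base windows in the end of its transcript also occur in Eno1b and a few pseudogenes. The share of Eno2 in the enolase counts was 73.5, 72.0, 63.3 and 67.7% in the controls and 56.9, 61.7, 68.7 and 62.2% in the mutants, with overlap (exact permutation p = 0.0857, adjusted 0.133), and it carries the same uncertainty.

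Pkm (ENSMUSG00000032294, chr9:59656368-59679375), pyruvate kinase, which makes pyruvate and ATP in the last step, was at 1155, 1064, 1028 and 1104 CPM in the controls and 405, 363, 382 and 372 CPM in the mutants. The spread within each genotype was small beside the gap between them. Its mean in Bbs8-/- was 35.0% of control, and the log2 fold change was -1.52 ± 0.075 (adjusted p 1.27e-18, edgeR). The splice forms Pkm1 and Pkm2 share their 3′ end and cannot be separated with these tags.

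**Figure D2:**
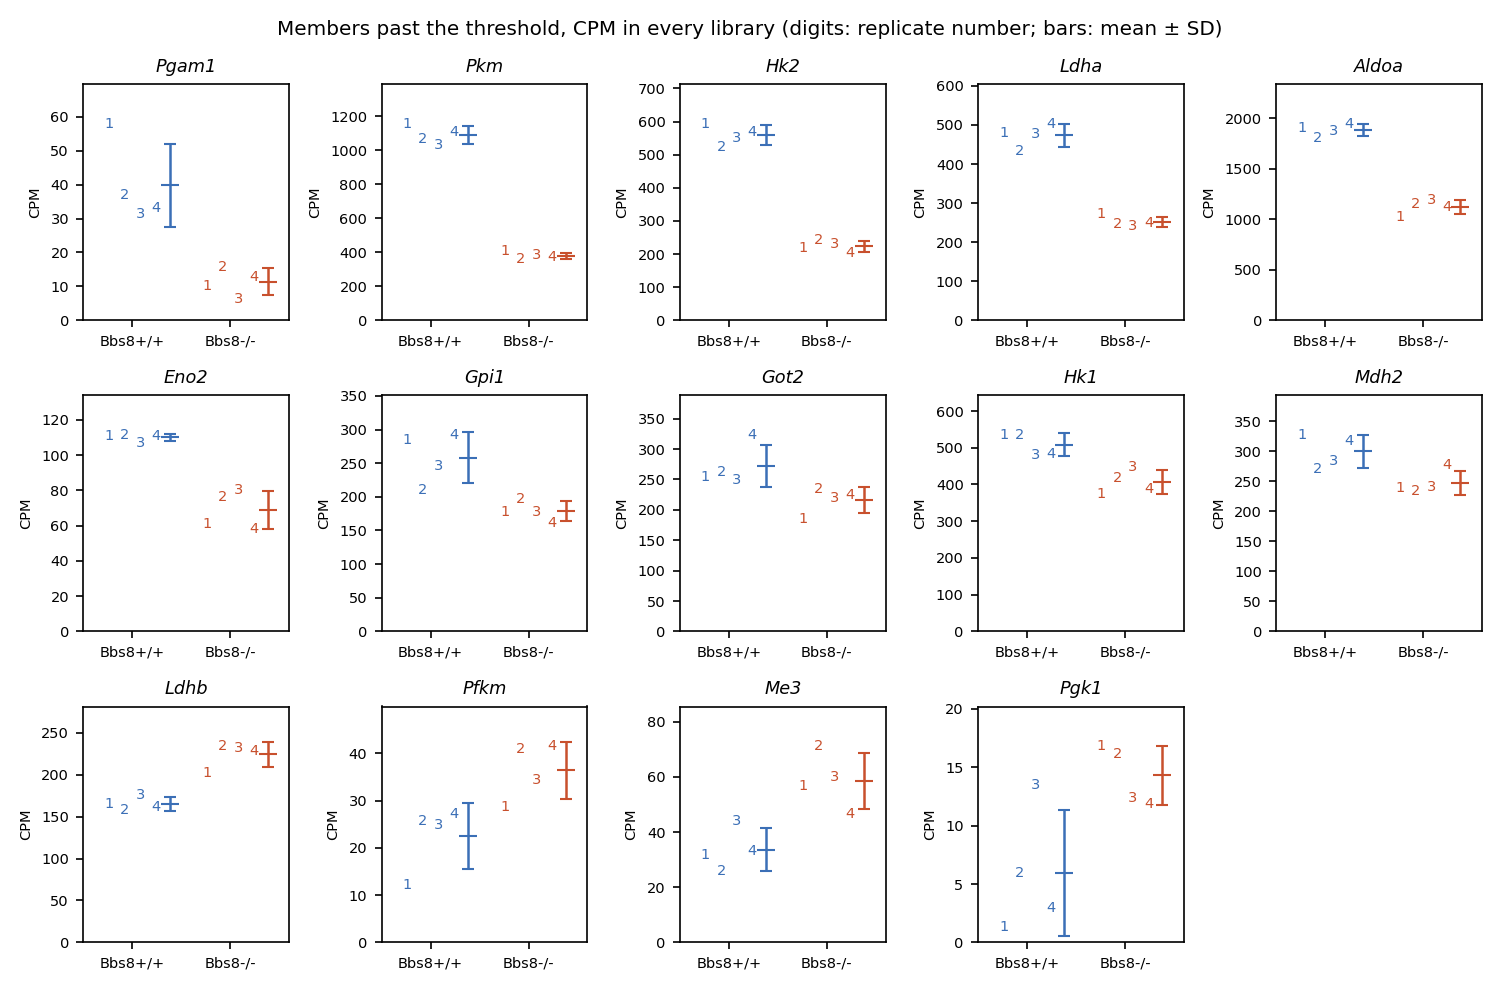
CPM of the 14 members past the threshold in every library, 1 panel per gene with its own axis from 0. Digits are replicate numbers, blue for Bbs8+/+ and red for Bbs8-/-, and the bars beside them are mean ± SD (n = 4). The genotypes overlap in Mdh2 and Pgk1 and are apart in the other 12 panels.

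The promoters of glycolytic genes were examined for ACGTG, a form of the core of the hypoxia response element, because several members fell together. Other forms of the core were not searched. RefSeq promoter sequences (build GRCm38.p6, 250 bases before to 50 bases after the start) were matched for 45 of the 47 members. ACGTG was present on either strand in at least 1 listed promoter of 6 of the 10 down-regulated members (Hk1, Hk2, Aldoa, Pgam1, Pkm and Ldha), in 2 of the 4 up-regulated members (Pfkm and Pgk1) and in 10 of the 30 matched members that did not pass. Of all 32851 promoters of this length 19.6% held it, and of all 27025 genes 21.8% held it in at least 1 listed promoter. It was absent from the listed promoters of the down-regulated Gpi1, Eno2, Mdh2 and Got2 and of the up-regulated Me3, which are not shown. A match describes letters in a window and shows no binding. Shown are Pgam1 (chr19:41911621-41911920, plus strand), Hk2 (chr6:82774405-82774704, minus strand) and Ldha (chr7:46845554-46845853, plus strand, the first of 2 listed) as down-regulated genes with the motif, Pgk1 (chrX:106186850-106187149, plus strand) as a gene with it that was up-regulated on few counts, and Ldhb (chr6:142507908-142508207, minus strand) as an up-regulated gene without it. Each is written 5′ to 3′ in the direction of transcription with the motif of either strand in capitals, and where both strands overlap the capitals read CACGTG.
Pgam1: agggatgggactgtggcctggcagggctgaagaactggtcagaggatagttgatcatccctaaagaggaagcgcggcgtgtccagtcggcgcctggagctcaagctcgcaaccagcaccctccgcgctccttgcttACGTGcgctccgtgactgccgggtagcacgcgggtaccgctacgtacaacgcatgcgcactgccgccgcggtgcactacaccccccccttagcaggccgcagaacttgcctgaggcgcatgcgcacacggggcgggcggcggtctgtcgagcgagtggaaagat
Hk2: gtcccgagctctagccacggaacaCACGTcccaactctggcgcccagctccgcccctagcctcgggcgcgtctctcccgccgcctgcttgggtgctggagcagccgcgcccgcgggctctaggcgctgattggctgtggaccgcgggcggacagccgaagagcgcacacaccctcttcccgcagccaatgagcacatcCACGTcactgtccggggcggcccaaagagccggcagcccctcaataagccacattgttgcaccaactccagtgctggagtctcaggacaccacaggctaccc
Ldha: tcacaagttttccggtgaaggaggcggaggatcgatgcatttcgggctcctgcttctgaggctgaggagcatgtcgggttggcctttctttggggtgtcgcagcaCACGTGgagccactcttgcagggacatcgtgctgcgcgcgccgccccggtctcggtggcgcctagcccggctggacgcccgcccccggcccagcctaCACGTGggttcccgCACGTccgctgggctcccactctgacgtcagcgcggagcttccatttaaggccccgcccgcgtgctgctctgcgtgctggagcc
Pgk1: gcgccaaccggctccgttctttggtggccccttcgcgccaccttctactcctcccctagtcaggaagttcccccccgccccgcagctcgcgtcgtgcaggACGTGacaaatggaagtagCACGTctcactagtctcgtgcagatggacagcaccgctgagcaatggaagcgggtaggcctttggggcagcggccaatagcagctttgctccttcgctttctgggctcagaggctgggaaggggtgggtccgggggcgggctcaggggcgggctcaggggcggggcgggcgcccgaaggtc
Ldhb: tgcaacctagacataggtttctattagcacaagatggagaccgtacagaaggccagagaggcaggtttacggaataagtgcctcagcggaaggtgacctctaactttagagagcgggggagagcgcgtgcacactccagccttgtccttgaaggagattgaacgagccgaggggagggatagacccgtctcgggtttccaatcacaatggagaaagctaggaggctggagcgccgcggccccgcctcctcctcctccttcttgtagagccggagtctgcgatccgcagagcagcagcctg

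The capitals mark 1 match in Pgam1, 2 in Hk2, 2 in Pgk1 and 5 in Ldha, counted over both strands, and none in Ldhb.

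The lactate dehydrogenase subunits moved in opposite directions. Ldha (ENSMUSG00000063229, chr7:46841475-46855627), the subunit that favours lactate formation, had 479, 434, 477 and 503 CPM in the controls and 271, 248, 241 and 249 CPM in the mutants. Ldhb (ENSMUSG00000030246, chr6:142490249-142507957), the subunit that favours lactate use, had 165, 158, 176 and 161 CPM in the controls and 202, 234, 232 and 228 CPM in the mutants. In neither gene did the genotypes overlap, and the mutants had nearly as much Ldhb as Ldha while every control had far more Ldha. The log2 fold change was -0.91 ± 0.086 for Ldha (adjusted p 1.53e-10) and 0.44 ± 0.10 for Ldhb (adjusted p 0.00150, edgeR), and both kept sign and call under each of the alternatives tried. Ldhb made up 25.6, 26.7, 27.0 and 24.3% of the counts of both subunits in the controls and 42.7, 48.6, 49.1 and 47.8% in the mutants. Every mutant was far above every control, with means of 25.9% ± 1.22 in Bbs8+/+ and 47.1% ± 2.94 in Bbs8-/- (SD, n = 4) (exact permutation p = 0.0286, adjusted 0.0667). In the end of the Ldhb transcript 7.69% of 50-base windows are shared with the pseudogene Gm5514.

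**Figure D3:**
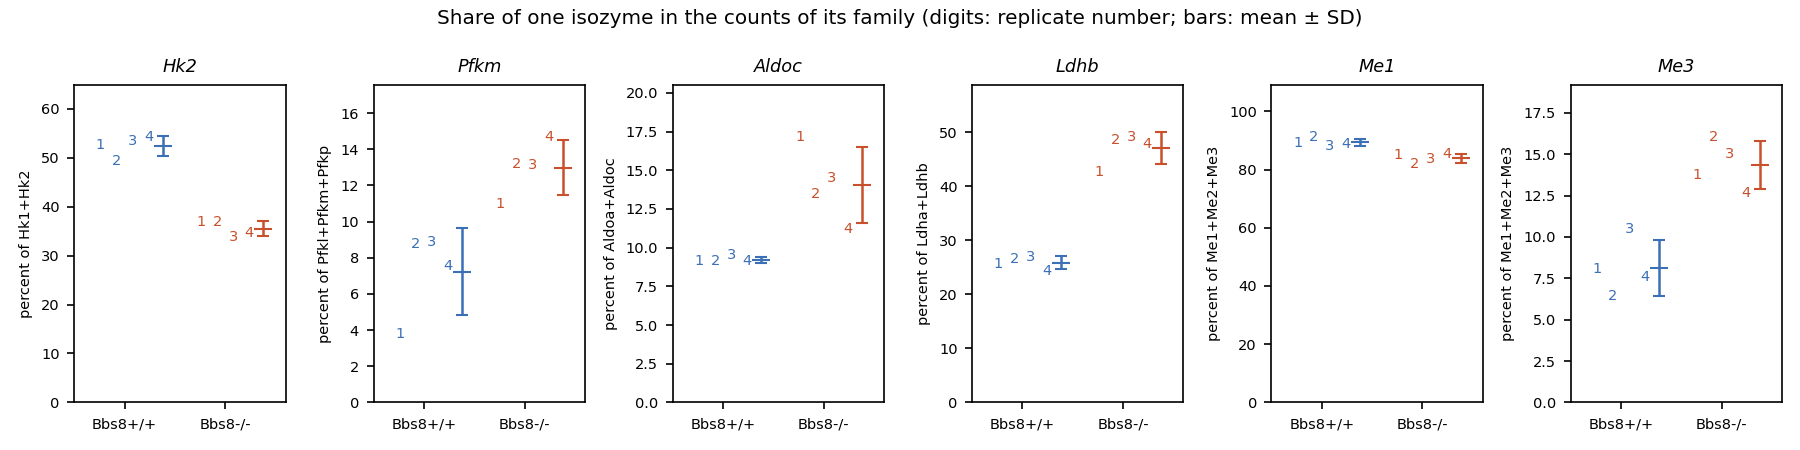
Share of Hk2, Pfkm, Aldoc, Ldhb, Me1 and Me3 in the summed counts of their isozymes in every library, in percent, with axes from 0. Digits are replicate numbers and bars are mean ± SD (n = 4). In each of these 6 panels the Bbs8-/- and Bbs8+/+ libraries do not overlap, and the widest gap of means is in Ldhb, 25.9% against 47.1%.

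None of the 10 tested members at the entry of pyruvate into mitochondria passed the threshold by edgeR, and DESeq2 also called 0 of them. At an unadjusted p under 0.05, 2 were higher (Pdk1 and Pcx) and 1 was lower (Pdk2). Of all 12889 genes tested, 1453 were higher and 1563 lower at that p, and 5.46% and 6.80% passed the threshold. The median log2 fold change of the 10 members was 0.18. The estimates ranged from -0.42 (Pdk2) to 0.51 (Pdk1). For the pyruvate dehydrogenase complex they were 0.22 ± 0.18 for Pdha1 and -0.30 ± 0.18 for Pdhb, the subunits of its decarboxylase, 0.37 ± 0.24 for Dlat, its acetyltransferase, and -0.31 ± 0.17 for Dld, its dihydrolipoyl dehydrogenase. The mitochondrial pyruvate carrier subunits had -0.20 ± 0.38 (Mpc1, at a mean of 9.71 CPM in the controls) and 0.15 ± 0.16 (Mpc2), and Pcx, which makes oxaloacetate from pyruvate, had 0.47 ± 0.22. Dld and Pdk2 had all mutant libraries below all controls without passing (adjusted p 0.279 and 0.0737, edgeR).

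None of the kinases that switch off the pyruvate dehydrogenase complex passed the threshold. Pdk2 was measured at 83.3, 76.5, 63.4 and 68.8 CPM in the controls and 47.2, 51.2, 62.4 and 58.0 CPM in the mutants. Pdk1 was measured at 22.3, 18.3, 29.4 and 20.1 CPM in the controls and 41.9, 25.1, 25.6 and 35.6 CPM in the mutants. Pdk3 was measured at 39.6, 27.6, 42.9 and 27.9 CPM in the controls and 46.0, 50.5, 30.8 and 31.1 CPM in the mutants. Pdk2 was lower in each mutant by a small margin, while Pdk1 and Pdk3 overlapped between genotypes. The share of Pdk2 among the 4 kinases was 56.8, 62.5, 46.5 and 58.9% in the controls and 35.0, 40.4, 51.5 and 46.5% in the mutants, with overlap (exact permutation p = 0.0571, adjusted 0.114). The exact permutation p was 0.0857 for the share of Pdk1, 0.257 for Pdk3 and 1.00 for Pdk4 (adjusted 0.133, 0.300 and 1.00). Pdk4 had 4, 0, 1 and 0 counts in the controls and 0, 0, 6 and 0 counts in the mutants, so no fold change is given.

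In the citric acid cycle 1 of 11 members was down-regulated (9.09%, close to the 6.80% of all genes tested) and 0 were up-regulated (against 5.46%), and the 11 had a median log2 fold change of 0.030, with estimates from -0.28 (Idh3a) to 0.29 (Sucla2). Without Bbs8+/+ replicate 1 0 of the 11 passed in either direction, and the median was -0.046. At an unadjusted p under 0.05 there was 1 higher gene, Sucla2, and DESeq2 called no member of the cycle as higher. Mdh2 (ENSMUSG00000019179, chr5:135778480-135790398), the mitochondrial malate dehydrogenase that closes the cycle, stood at 327, 270.4, 284 and 317 CPM in the controls and 239, 234, 240.0 and 277 CPM in the mutants. The highest mutant, replicate 4, lay within the range of the controls, and the other mutants lay below all of them. Its log2 fold change was -0.28 ± 0.095 with an adjusted p of 0.0497 by edgeR, at the edge of the threshold. The call was lost without Bbs8+/+ replicate 1 (0.0980) or 4 (0.158) or Bbs8-/- replicate 1 (0.107), 2 (0.141) or 3 (0.121), with the adjusted p in parentheses, with scaling by library size alone (0.223), with edgeR's own filter (0.0542) and with the replicate number as a block (0.0617).

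The other members of the cycle did not pass. Cs, citrate synthase, had 53.8, 84.7, 80.1 and 85.1 CPM in the controls and 82.5, 85.3, 111 and 74.4 CPM in the mutants. Bbs8+/+ replicate 1 was the lowest library for Cs, the genotypes overlapped, and the log2 fold change was 0.22 ± 0.15 with it and 0.082 ± 0.14 without it. The subunits of the NAD-dependent isocitrate dehydrogenase had -0.28 ± 0.15 (Idh3a), 0.14 ± 0.17 (Idh3b) and -0.10 ± 0.18 (Idh3g), and Idh2, the mitochondrial NADP-dependent form, had 0.030 ± 0.24. Ogdh and Dlst, of the 2-oxoglutarate dehydrogenase complex, had -0.085 ± 0.12 and -0.0037 ± 0.18, and Fh1, fumarase, had 0.054 ± 0.21. Suclg1 and Sucla2, which form the ATP-making succinyl-CoA ligase, had 0.10 ± 0.12 and 0.29 ± 0.13. Sucla2 was at 104, 106, 78.9 and 87.3 CPM in the controls and 113, 121, 108 and 117 CPM in the mutants, the only one of these with all mutants above all controls, at an adjusted p of 0.149 by edgeR. With scaling by library size alone its adjusted p was 0.0413.

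Malic enzymes turn malate into pyruvate. Me3 (ENSMUSG00000030621, chr7:89632392-89854359), a mitochondrial form, was up-regulated, at 31.8, 25.7, 44.1 and 33.1 CPM in the controls and 56.7, 71.3, 60.0 and 46.5 CPM in the mutants. The lowest mutant was above the highest control by a small margin, and the log2 fold change was 0.80 ± 0.19 (adjusted p 0.00264, edgeR), past the threshold in each of the alternatives tried. Me1, the cytosolic form, had 352, 363, 371 and 389 CPM in the controls and 349, 365, 334 and 313 CPM in the mutants, with overlap and a log2 fold change of -0.12 ± 0.085 (adjusted p 0.458, edgeR). Me2, the other mitochondrial form, had 10.5, 10.1, 6.13 and 15.2 CPM in the controls and 5.75, 9.32, 5.20 and 7.69 CPM in the mutants, also with overlap (-0.58 ± 0.40, adjusted p 0.413, edgeR). Of the malic enzyme counts, Me3 took 8.08, 6.45, 10.5 and 7.56% in the controls and 13.8, 16.01, 15.0 and 12.7% in the mutants, and Me1 89.3, 91.0, 88.1 and 89.0% and 84.8, 81.9, 83.7 and 85.3%. Neither share overlapped between genotypes (exact permutation p = 0.0286, adjusted 0.0667, for both), and the share of Me2 did (exact permutation p = 0.143, adjusted 0.200). Idh1, the cytosolic isocitrate dehydrogenase, did not pass, at 0.018 ± 0.19 (adjusted p 0.974, edgeR), or -0.19 ± 0.16 with an adjusted p of 0.569 without Bbs8+/+ replicate 1.

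The malate-aspartate shuttle carries electrons of cytosolic NADH into mitochondria. Got2 (ENSMUSG00000031672, chr8:95864134-95888547), its mitochondrial transaminase, was at 254, 262, 249 and 323 CPM in the controls and 184, 234, 220.0 and 225 CPM in the mutants. All mutants were below all controls, though the gap was small, and the log2 fold change was -0.33 ± 0.10 (adjusted p 0.0244, edgeR). The call was lost without Bbs8+/+ replicate 4 (0.186) or Bbs8-/- replicate 1 (0.109) or 3 (0.0507), with the adjusted p in parentheses, and with scaling by library size alone (0.121). Got1, the cytosolic transaminase, did not pass with all libraries (-0.31 ± 0.13, adjusted p 0.109, edgeR) and was down-regulated without Bbs8+/+ replicate 1 (-0.38 ± 0.12 with an adjusted p of 0.0248). Slc25a12, an aspartate-glutamate carrier, did not pass either (0.33 ± 0.12, adjusted p 0.0782, edgeR), and was up-regulated without Bbs8+/+ replicate 1 (0.38 ± 0.12 with an adjusted p of 0.0308) and with scaling by library size alone (0.0169). Slc25a12 also passed without Bbs8-/- replicate 3 (adjusted p 0.0421). Mdh1, the cytosolic malate dehydrogenase, had 307, 302, 305 and 311 CPM in the controls and 349, 347, 337 and 334 CPM in the mutants. Both groups were tight and apart, but the difference was small, with a log2 fold change of 0.16 ± 0.084 and an adjusted p of 0.265 by edgeR, and 0.0434 when scaled by library size alone.

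**Figure D4:**
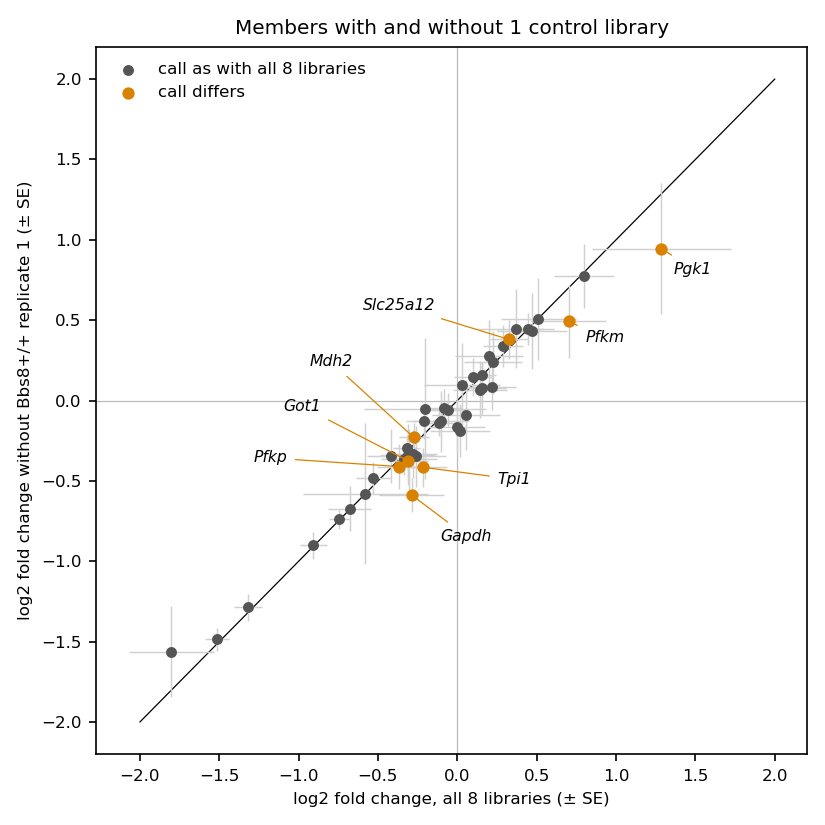
Log2 fold change of the 46 members with all 8 libraries (horizontal) and without Bbs8+/+ replicate 1 (vertical), with SE bars and a line of equality. Orange points are members whose call differs between both fits, which are Mdh2, Pfkm and Pgk1 (lost) and Pfkp, Tpi1, Gapdh, Got1 and Slc25a12 (gained).

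Summed over the 15 glycolytic members, the level was 5329.7, 5203, 5298 and 5519 CPM in the controls and 3129, 3269, 3298 and 3059 CPM in the mutants, and the mean in Bbs8-/- was 59.7% of control. All mutants were far below all controls, and the share of reads on no gene and the number of genes detected also separated the genotypes. The sum of Ldha and Ldhb was 644, 592, 653 and 664 CPM in the controls and 474, 482, 473 and 477 CPM in the mutants, or 74.7%. The other groups overlapped between genotypes, at 97.3% for the citric acid cycle, 102% for pyruvate entry, 98.6% for the malic enzymes with Idh1 and 97.2% for the shuttle. These sums are descriptions without a test, and that of glycolysis is led by Aldoa, its most abundant gene.

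Markers of other cells moved with genotype in the same libraries. Beside the counts below, 5.46% of all genes tested were up-regulated and 6.80% down-regulated. Of 16 rod genes 15 were down-regulated, all but Gngt1, which was also down-regulated without Bbs8+/+ replicate 1 (-0.37, adjusted p 2.23e-04, edgeR), the median log2 fold change was -1.24, and the summed level was 66336, 62864, 63982 and 65844 CPM in the controls and 27245, 26786, 26389 and 26981 CPM in the mutants, 41.5% of control. Among the most abundant were Sag (arrestin, -0.77 ± 0.046), Gnat1 (transducin, -1.47 ± 0.050) and Pde6g (phosphodiesterase, -1.39 ± 0.056). All 17 lens genes tested were down-regulated, with a summed level of 3546, 3545, 3382 and 3618 CPM in the controls and 481, 467, 522 and 470.3 CPM in the mutants (13.8%), led by Crygb. Among them Gja3 had 0 counts in every mutant and met the filter on low counts through the controls alone. The lens count was 16 by DESeq2 or with edgeR's own filter, and 15 to 17 with 1 library left out. Of 6 erythrocyte genes tested 5 were down-regulated, with a summed level of 5718, 5154, 5355 and 5424 CPM in the controls and 2218, 2207, 2157 and 1985 CPM in the mutants (39.6%), led by Hbb-bs. For rod, lens and erythrocyte genes every mutant was below every control in the summed level, as for the glycolytic sum. Their part in the fall of glycolytic transcripts was not tested.

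Cone genes went the other way, with 5 of 8 up-regulated (62.5%, against 5.46% of all genes tested). Their summed level was 173, 176, 222 and 198 CPM in the controls and 297, 336, 314 and 338 CPM in the mutants (167%). Named here are Opn1sw (short-wave opsin, 0.76 ± 0.13), Gnat2 (cone transducin, 0.70 ± 0.22), Pde6h (cone phosphodiesterase, 1.21 ± 0.26) and Gngt2 (a transducin subunit, 1.14 ± 0.23). Arr3, the cone arrestin, did not pass and its estimate was below 0 (-0.13 ± 0.24, adjusted p 0.808, edgeR), although it was second in abundance among cone genes in the controls. Opn1mw, the middle-wave opsin, was up-regulated but did not pass without Bbs8+/+ replicate 2 (0.0816) or 4 (0.0564) or Bbs8-/- replicate 1 (0.0582), 2 (0.0516) or 3 (0.0672), with the adjusted p in parentheses (edgeR). Without Bbs8+/+ replicate 2 or Bbs8-/- replicate 2 the count of up-regulated cone genes was 3. Gnat2 did not pass without Bbs8+/+ replicate 2 (0.0829) or 3 (0.114) or Bbs8-/- replicate 1 (0.0622), 2 (0.0727) or 4 (0.0687), with the adjusted p in parentheses (edgeR). Of 8 Muller glia genes 2 were up-regulated (25%, against 5.46% of all genes tested), Glul (glutamine synthetase, 0.51 ± 0.064) and Dkk3 (0.83 ± 0.14). The sum of 1164, 1274, 1355 and 1336 CPM in the controls and 1909.5, 1781, 1892 and 1831 CPM in the mutants was mostly Glul, which other cells also express. Slc1a3 and Abca8a, next in abundance, did not pass (0.82 ± 0.35 and 0.23 ± 0.38). Of 5 reactive glia genes 4 were up-regulated (80%, against 5.46% of all genes tested). Their summed level was 46.4, 72.4, 78.1 and 72.5 CPM in the controls and 861, 849, 867 and 780.3 CPM in the mutants, led in the mutants by Serpina3n. Gfap, an astrocyte and Muller glia filament among these 4, did not pass without Bbs8+/+ replicate 1 (0.0861), 2 (0.111) or 4 (0.0674) or Bbs8-/- replicate 1 (0.0839) or 2 (0.121), or with the replicate number as a block (0.0709), with the adjusted p in parentheses (edgeR). In each of these lists all mutants were above all controls in the summed level, and their part in the results for the members was not tested.

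The RPE genes that define the sample were abundant in every library, with a summed level of 37886, 37287, 38313 and 37959 CPM in the controls and 49299, 45841, 48540.2 and 47319 CPM in the mutants (126%). Of 14, 5 were up-regulated (35.7%, against 5.46% of all genes tested) and 4 down-regulated (28.6%, against 6.80%), with a median log2 fold change of -0.016. Without Bbs8+/+ replicate 2 the up-regulated genes were 3, because Mlana and Ermn no longer passed (adjusted p 0.0548 and 0.0779, edgeR). The most abundant were Ttr (transthyretin, 0.60 ± 0.036), Rgr (a retinal G protein-coupled receptor, -0.0086 ± 0.049), Rpe65 (the visual cycle isomerase, -0.24 ± 0.050) and Rdh5 (a retinol dehydrogenase, -0.26 ± 0.055). The mean of Ttr went from 20932 to 31748 CPM and that of the sum from 37861 to 47749.9 CPM, so Ttr gained more than the whole sum did, and the other RPE genes together were lower. Best1 was near the floor in all libraries, at 1.06 ± 0.854 CPM in Bbs8+/+ and 0.937 ± 1.09 CPM in Bbs8-/- (SD).

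Of the remaining lists only the fibroblast and ocular surface genes held any that passed. None of 8 microglia genes, 6 endothelial genes, 6 bipolar and amacrine genes and 2 Schwann cell and melanocyte genes tested passed by edgeR or DESeq2, and before adjustment 1 microglia gene, Csf1r, and 0 of the others had p under 0.05. Their summed levels in Bbs8-/- were 87.1%, 119%, 103% and 112% of control, with overlapping libraries, led by Csf1r, Kdr, Slc6a9 and Sox10. Csf1r passed as lower without Bbs8+/+ replicate 2 (0.0413) or 3 (0.0316), with the adjusted p in parentheses, and without a filter on low counts (0.0349, edgeR). Of 6 fibroblast genes 2 were down-regulated (Col1a1 and Col3a1, 33.3%, against 6.80% of all genes tested), and 0 with scaling by library size alone. The fibroblast sum, led by Dcn, was at 84.7% with overlap. Col1a1 did not pass without Bbs8+/+ replicate 2 (0.0746) or 4 (0.105) or Bbs8-/- replicate 1 (0.107) or 2 (0.0548), with the adjusted p in parentheses (edgeR). Col3a1 did not pass without Bbs8+/+ replicate 3 (0.0952) or 4 (0.0719) or Bbs8-/- replicate 2 (0.120), and Col1a2 was down-regulated without Bbs8+/+ replicate 1 (4.29e-06) or Bbs8-/- replicate 4 (0.0468), without a filter on low counts (0.00249) and with the replicate number as a block (0.0279), with the adjusted p in parentheses (edgeR). The ocular surface keratins Krt5, Krt14 and Krt15, led by Krt15, summed to 0, 0, 0 and 0.372 CPM in the controls and 32.8, 33.0, 50.01 and 43.7 CPM in the mutants, present in every mutant and at or near 0 in every control, while Krt12 had 0 counts in all 8 libraries and Trp63 had 1, 3, 0 and 0 counts in the controls and 0 in all mutants. All 3 passed with all libraries, 2 by DESeq2 or with edgeR's own filter, and 0 without any 1 mutant library, because they met the filter on low counts through the 4 mutants alone.

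**Figure D5:**
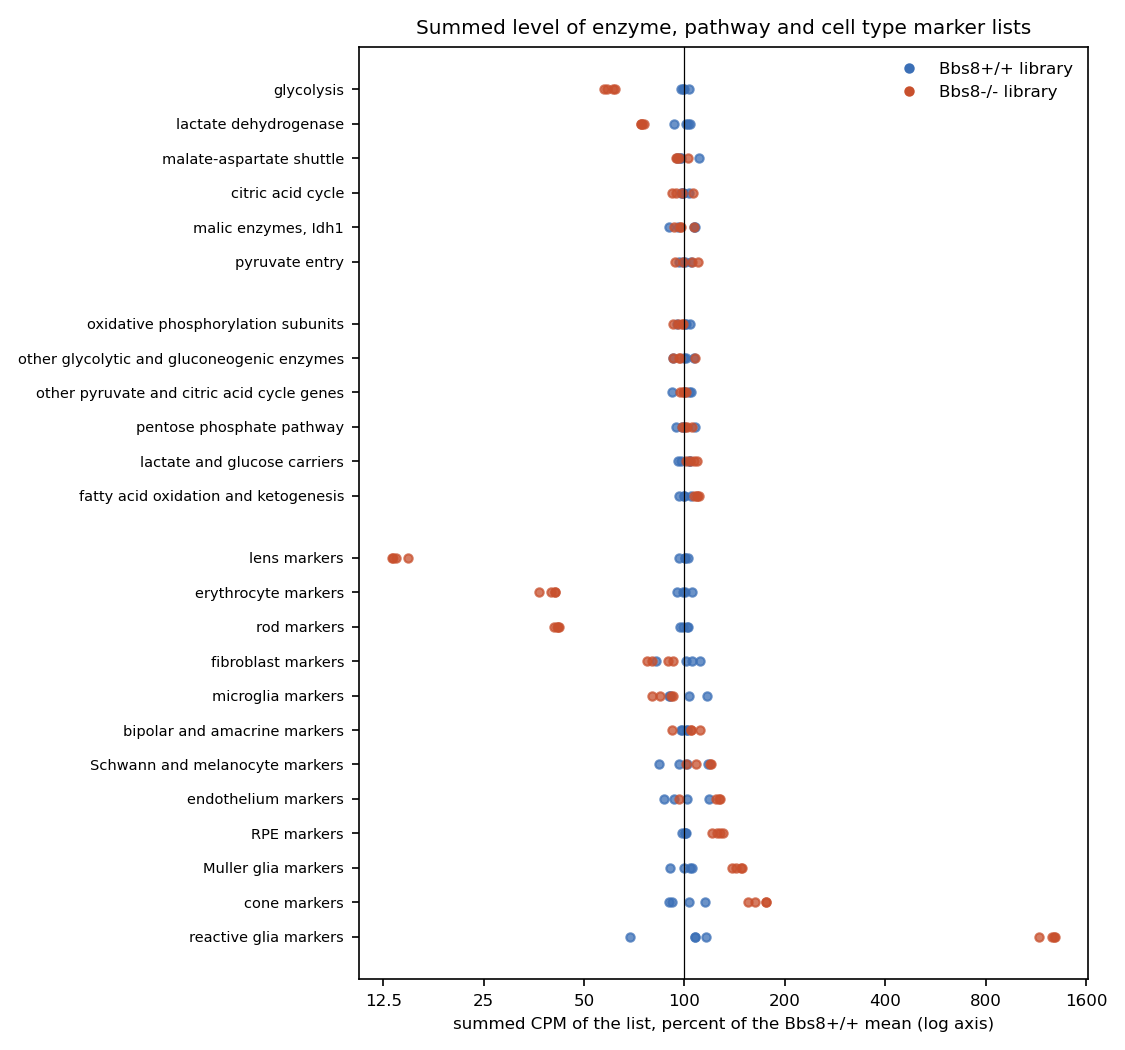
Summed CPM of each list in every library as a percentage of its Bbs8+/+ mean, on a log axis, blue for Bbs8+/+ and red for Bbs8-/-. From top to bottom the blocks are the members by role, other pathway lists and cell type markers. Glycolysis (59.7%) lies to the left of control with the rod, erythrocyte and lens lists, and the citric acid cycle lies at 97.3%. The ocular surface list is not drawn because its control level is near 0.

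Genes of neighbouring pathways outside the member list gave 12 up-regulated (7.79%) and 13 down-regulated genes (8.44%) of 154 tested, against 5.46% and 6.80% of all genes tested, and their median log2 fold change was 0.014. The count of up-regulated genes was 5 without Bbs8-/- replicate 4. Of 20 other glycolytic and gluconeogenic enzymes 0 passed by edgeR or by DESeq2 in either direction, although before adjustment 1 was higher and 3 were lower at p under 0.05, and of 8 pentose phosphate genes 0 passed by either tool, with 1 lower at that p. Without Bbs8-/- replicate 2 or 4 there was 1 down-regulated gene among the other glycolytic and gluconeogenic enzymes.

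Among 21 other pyruvate and citric acid cycle genes 3 were up-regulated (14.3%, against 5.46% of all genes tested) and 2 down-regulated (9.52%, against 6.80%). With 1 library left out 2 to 3 were up-regulated and 1 to 3 down-regulated. Suclg2, which makes the GTP form of succinyl-CoA ligase with Suclg1, was at 7.45, 11.2, 11.04 and 6.69 CPM in the controls and 36.5, 32.2, 27.2 and 28.7 CPM in the mutants, a log2 fold change of 1.78 ± 0.27 (adjusted p 5.68e-06, edgeR). Slc25a13, the second aspartate-glutamate carrier, was at 15.2, 12.7, 11.9 and 14.1 CPM and 24.2, 25.4, 33.2 and 38.1 CPM (1.16 ± 0.25, adjusted p 0.00108, edgeR). All mutants were above all controls in both genes, and their counterparts among the members, Sucla2 and Slc25a12, had smaller estimates above 0 that passed only under some of the alternatives. Ogdhl, a relative of Ogdh, was lower (-1.23 ± 0.27, adjusted p 0.00123, edgeR).

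Of 8 carriers of lactate and glucose, 2 were up-regulated and 2 down-regulated (25% each, against 5.46% and 6.80% of all genes tested). Slc16a3, the lactate exporter MCT4, was at 20.3, 24.2, 22.5 and 23.0 CPM in the controls and 0, 1.43, 0.800 and 6.29 CPM in the mutants. Every control was well above the floor and most mutants were at or near it, with a log2 fold change of -3.31 ± 0.48 (adjusted p 1.75e-06, edgeR). Slc16a1, the carrier MCT1, was lower (-0.27 ± 0.073, adjusted p 0.00873, edgeR), but not past the threshold when scaled by library size alone (0.0942). Slc16a8, the basal RPE lactate carrier MCT3, which is also among the RPE markers, was higher (0.37 ± 0.074, adjusted p 3.86e-04, edgeR). Slc2a1, the glucose transporter GLUT1, was higher by 0.25 ± 0.086 (adjusted p 0.0454, edgeR) and was at 0.18 ± 0.073 with an adjusted p of 0.116 without Bbs8+/+ replicate 1. Slc2a1 also did not pass without Bbs8+/+ replicate 2 (0.0784) or 4 (0.0663) or Bbs8-/- replicate 1 (0.222), 3 (0.0700) or 4 (0.0609), or with the replicate number as a block (0.0647).

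In fatty acid oxidation and ketogenesis 1 of 22 genes was up-regulated (4.55%, against 5.46% of all genes tested) and 0 were down-regulated (against 6.80%). The gene was Hadh, an enzyme of beta-oxidation (0.42 ± 0.13, adjusted p 0.0265, edgeR). Hadh did not pass without Bbs8+/+ replicate 1 (0.33 ± 0.13 with an adjusted p of 0.0799), nor without Bbs8+/+ replicate 2 (0.0652) or Bbs8-/- replicate 2 (0.0675), 3 (0.0989) or 4 (0.0727). The median log2 fold change of this list was 0.19, with 19 of 22 estimates above 0, against 6677 of 12889 for all genes tested. Of 75 subunits of oxidative phosphorylation 6 were up-regulated (8%, against 5.46% of all genes tested) and 9 down-regulated (12%, against 6.80%), with a median of -0.059. This balance depended on the method, with 9 up-regulated and 7 down-regulated subunits when scaled by library size alone and 4 and 12 by DESeq2. The up-regulated subunits were 4 without Bbs8-/- replicate 1, 3 without replicate 2 and 2 without replicate 4 of that genotype. At a mean of at least 10 CPM the largest changes were in the cytochrome oxidase subunits Cox8b (0.96 ± 0.12) and Cox7c (0.64 ± 0.19), the ATP synthase subunit Atp5k (-0.61 ± 0.083) and Cox7a2l (-0.60 ± 0.14), a factor in the assembly of supercomplexes. Below that level the cytochrome oxidase subunit Cox7a1 was higher by 1.46 ± 0.44 (adjusted p 0.0223, edgeR) and did not pass without Bbs8+/+ replicate 3 (0.0804) or 4 (0.0708) or Bbs8-/- replicate 2 (0.0642) or 4 (0.0928). Cox7c was at 98.2, 382, 405 and 337 CPM in the controls and 489, 475, 458 and 475 CPM in the mutants, and without the low Bbs8+/+ replicate 1 its log2 fold change was 0.34 (adjusted p 0.00107, edgeR). With all libraries Cox7c had an adjusted p of 0.0197 by edgeR and 0.351 by DESeq2, and it did not pass without Bbs8-/- replicate 1 (0.0648), 2 (0.0535), 3 (0.0512) or 4 (0.0662).

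These results describe transcript levels at a single age in whole isolated tissue, and the libraries hold no measure of protein, enzyme activity or lactate. The sheets held transcripts of rods, lens and blood in amounts that differed between genotypes, and no sorted cells were sequenced, so the cell type in which Pgam1, Pkm, Hk2 or Ldha fell is not known. Both RPE and photoreceptors lacked Bbs8, and an effect in the RPE itself and one passed on from photoreceptors cannot be told apart. Sex, litter and dissection batch were not given per animal. Calls for Pgk1, Pfkm, Mdh2 and Got2 turn on single libraries, and Gapdh and Eno1 share sequence with other genes.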

How the data were processed

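RNA of isolated P29 RPE was sequenced in 8 libraries with QuantSeq 3′ chemistry, with the genotype read from the sample labels. The authors trimmed reads with BBDuk, used STAR for alignment to mm10 and htseq-count for counting those that mapped uniquely to an Ensembl gene, and deposited the raw counts. Reads aligned to several places were 32.8% to 34.5% of all reads counted, reads on no gene 17.0% to 20.6% and ambiguous reads 0.244% to 0.296%, and these were kept out of library sizes and tests. Genes with many copies elsewhere lose reads by this rule.

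Symbols, positions and transcript ends came from GENCODE for GRCm38, with a name for 30934 of 31053 identifiers, and Aldoa was taken from the identifier with counts. The software was edgeR 4.0.16, which uses limma 3.58.1, and DESeq2 1.42.0, run under R 4.3.3, and the code was tested on simulated data. Standard errors came from the estimate and the F statistic. Isozyme shares were left out below 20 summed counts in any library. Shared ends were sought as exact 50-base windows of the last 400 bases of the longest coding transcript. The alternatives were scaling by library size, TMM without rod, cone, lens and erythrocyte markers, DESeq2, no filter or edgeR's filterByExpr, the replicate number as a block, each library left out, and a threshold of 0.01. Values per library were given for members past the threshold and for isozymes compared, and other genes were named from each pathway list (up to 4 past the threshold with the largest change and a mean of at least 10 CPM) and each marker list (the most abundant). The members and lists were chosen with earlier results of these data known.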

Additional observations from a re-analysis of the deposited data

Results flagged for a closer look

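Each group of 4 libraries was searched for a library far from the other 3, over the 92 groups of the members and those of the isozyme shares, 120 in all. The rule flagged 6, which is about as many as chance gives at 1 in 20 groups. Of these 3 were the same library, Bbs8+/+ replicate 1, which was low at 12.2 CPM for Pfkm (next 24.9), 68.7 CPM for Tpi1 (next 135) and 53.8 CPM for Cs (next 80.1). Mdh2 was high in Bbs8-/- replicate 4, at 277 CPM (next 240.0). The share of Aldoc in aldolase counts was highest in Bbs8+/+ replicate 3, at 9.51% (next 9.15%), in a group with very little spread. The share of Pdk4 in Bbs8-/- replicate 3 was 1.98%, from 6 counts, and 0 in the other mutants.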

How the results depend on the processing

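Pkm, Hk2, Ldha, Aldoa, Pgam1, Eno2, Gpi1, Ldhb and Me3 kept their direction and stayed past 0.05 in all 6 other scalings, tests, filters and designs and in all 8 fits without 1 library. With library size alone, 1005 genes were higher and 657 lower, and the median of all log2 fold changes moved by 0.089. That setting gave 7 members higher in place of 4. An adjusted p of 0.01 left 2 members higher and 8 lower, and 5 other pathway genes higher in place of 12. With 1 library left out, 8 to 13 members were lower, 2 to 3 higher, and 11 to 16 other pathway genes were lower and 5 to 11 higher. The fits without 1 library had fewer samples.

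Members that did not pass changed sign where the estimate was near 0. Aldoc was -0.061 and became 0.027 (library size), -0.13 to 0.047 with 1 library left out. Idh2 was 0.030 and became -0.12 to 0.15 with 1 library left out. Ogdh was -0.085 and became 0.0046 (library size). Dlst was -0.0037 and became 0.082 (library size), 0.0028 (DESeq2), 0.0087 (filterByExpr), 0.026 (block), -0.16 to 0.17 with 1 library left out. Suclg1 was 0.10 and became -0.023 to 0.21 with 1 library left out. Fh1 was 0.054 and became -0.11 to 0.16 with 1 library left out. Idh1 was 0.018 and became -0.19 to 0.20 with 1 library left out. The cause was not tested.

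Same-numbered libraries of both genotypes did not deviate together (r across genes -0.069 to 0.024), so no pairing by number was seen. A weak shared effect could be missed in this way, and the litters were not given. With the replicate number as a block 4 members were higher and 9 lower, Mdh2 being lost, and 12 and 12 other pathway genes. For the isozyme shares the block leaves each difference as it was (21.2 percentage points for Ldhb), and its smallest exact permutation p is 0.125. Low counts limit Pgk1, Mpc1 and Me2, and also the size of the change in Pgam1. Pdk4 gives no comparison.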
